A study of Drosophila melanogaster with 6 samples.

Results

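The 10 genes described here make fat in the fly from citrate or acetate, or coat the droplets that store it: ATPCL, AcCoAS, ACC, FASN1, FASN2, Desat1, Lpin, mdy, Lsd-1 and Lsd-2. They were chosen by name, as enzymes of fatty acid and triglyceride synthesis and as coat proteins of lipid droplets, and they are 10 of the 16727 genes in each deposited table. All 10 passed the filter on low counts. Poly(A) RNA was sequenced from larvae of Drosophila melanogaster collected 2 days after egg laying, in 3 CG1603PBac and 3 wt samples that the labels call biological replicates. CG1603PBac larvae were homozygous for a PiggyBac insertion that carries stop codons and a DsRed marker, in an intron of CG1603, which encodes a C2H2 zinc finger protein. The insertion came from a stock backcrossed to w1118 flies, and homozygotes were picked against a fluorescent CyO balancer chromosome. Such homozygotes arrest and die as second-instar larvae. The sources used here do not name the stock of the wt larvae, the sex of the larvae or the number pooled per sample.

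Fat is made in the cytosol and at the endoplasmic reticulum. Citrate leaves the mitochondrion and is split to acetyl-CoA, which is carboxylated to malonyl-CoA and joined into fatty acids with electrons from NADPH. Fatty acids are then elongated, desaturated and esterified to glycerol, and the triglyceride is held in droplets coated by perilipins. In larvae most of this takes place in the fat body, the storage organ, while oenocytes make very long chains for the cuticle.

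Total gene counts ran from 27100927 to 36016914 in CG1603PBac libraries and from 33377603 to 34883345 in wt libraries. The share of reads left unaligned was 31.4 ± 0.445% in CG1603PBac and 8.77 ± 0.354% in wt libraries (SD, n = 3 each), and its part in the results was not tested. CG1603 itself was counted at 28.2 ± 2.40 CPM in CG1603PBac and 18.9 ± 1.70 CPM in wt larvae (SD, n = 3 each; log2 fold change 0.57, edgeR adjusted p = 3.62e-04). A gene-level count sums the exons on both sides of the insertion, so it does not check the labels. Levels below are CPM, counts scaled to a common library size with TMM scaling factors, which correct for the make-up of each library, and each log2 fold change is CG1603PBac over wt. P-values are from edgeR's quasi-likelihood test, adjusted over the 11306 genes tested. In a whole larva, fewer cells of a type and less RNA per cell cannot be told apart. The summed level of fat body markers was 32.4% of that in wt larvae, and its part in the results was not tested.

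Of the 10 genes, 7 were lower and 3 were higher in CG1603PBac larvae, and 5 were lower by more than 2-fold. These 5 are ATPCL, AcCoAS, ACC and FASN1, which act from citrate and acetate up to the finished chain, and the perilipin gene Lsd-1. With TMM scaling Desat1, mdy, Lpin and FASN2 changed by less than 1.5-fold, and Lsd-2, the other perilipin gene, rose. With library totals in place of TMM 5 of the 10 were lower and 4 higher, 2 (ATPCL and ACC) were lower by more than 2-fold, and FASN2 (0.77) and Lpin (0.71) rose by more than 1.5-fold. With the trend of fold changes on exon length removed, 1 of the 10 (Lsd-2) was higher. Most genes of the table differed as well. Of all genes tested, 69.7% passed the threshold, 34.9% as lower and 34.8% as higher, while 15.0% were lower and 17.0% higher by more than 2-fold. The split over all genes also depended on the scaling, since with library totals 2585 genes were lower and 5661 higher, against 3946 lower and 3936 higher with TMM. The count of calls among the 10 is read against that background, and what follows turns on the sizes of the changes. Of all genes tested, 2.33% had a lower log2 fold change than ATPCL and 4.95% a lower one than ACC. The share was 10.3% for FASN1, 10.9% for Lsd-1 and 15.8% for AcCoAS. For Lsd-2 it was 72.9%, and its rise of 0.73 was under the all-gene upper quartile of 0.807. The libraries of the genotypes did not overlap for any of the 10, which was also the case for 73.8% of all genes tested (36.3% lower and 37.5% higher in CG1603PBac). The median log2 fold change of the 10 was −0.66, against 0.06 for all genes.

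**Figure D1:**
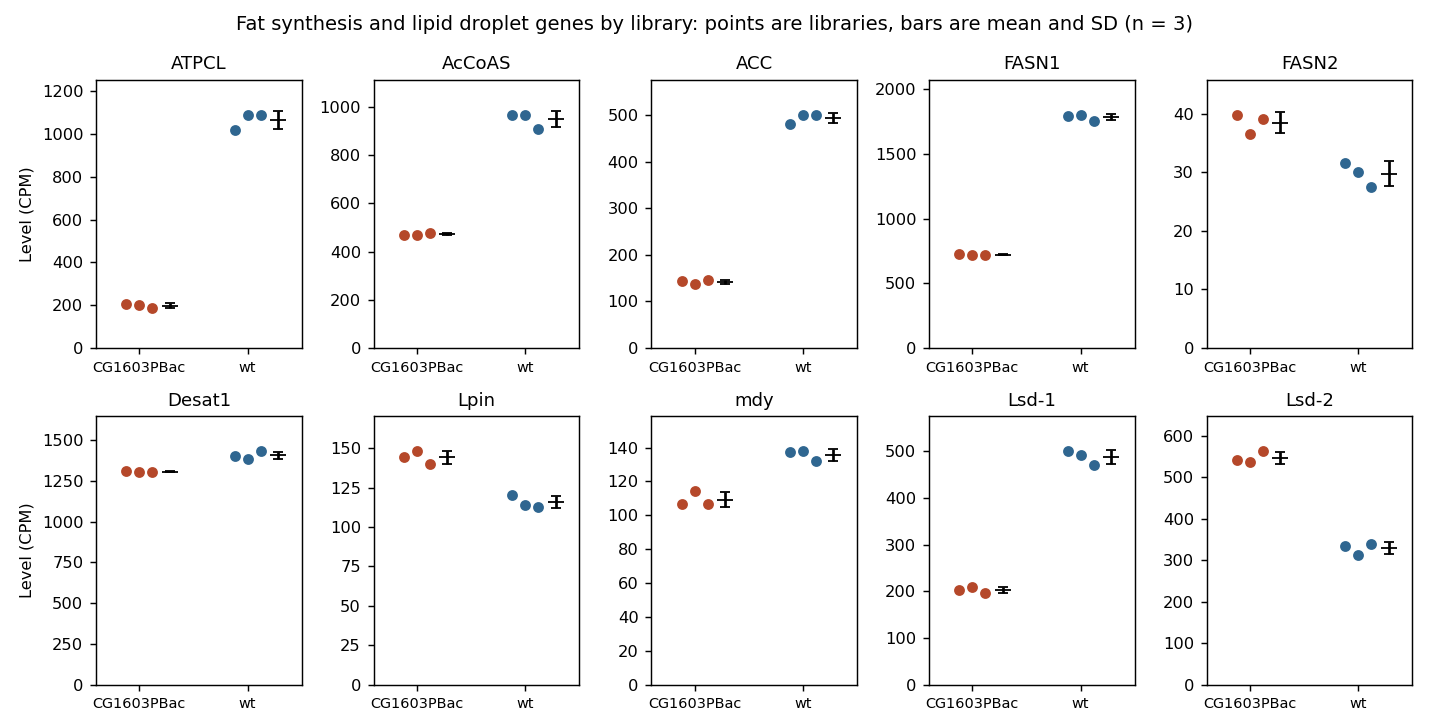
Level of each of the 10 genes (y axis, CPM with TMM factors, from 0) in the 3 CG1603PBac and 3 wt libraries (points), with mean and SD beside them. ATPCL, AcCoAS, ACC, FASN1 and Lsd-1 lie far lower in CG1603PBac, Lsd-2 lies higher, and Desat1 is at 1305 to 1431 CPM in every library.

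ATPCL, the ATP citrate lyase that splits cytosolic citrate into acetyl-CoA and oxaloacetate, fell most. It had 206, 202 and 187 CPM in the CG1603PBac libraries, against 1019, 1088 and 1090 CPM in the wt libraries. Every mutant library thus lay far under every wt library, at a mean of 18.6% of the wt level. ATPCL thus had a log2 fold change of −2.43 ± 0.05 (SE; edgeR, adjusted p = 1.96e-20), and 2.33% of all genes tested had a lower one. ATPCL (FBgn0020236) is encoded on chromosome 2R at 15993531 to 16001290, minus strand (genome build dm6 here and below). Short stretches of its exons overlap CG8320 (4.08%) and Tmem131 (2.37%) on the opposite strand.

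AcCoAS, the acetyl-CoA synthetase that makes the same product from free acetate, fell less. Its levels were 471, 469 and 478 CPM in CG1603PBac and 967, 967 and 910 CPM in wt libraries, with no overlap. AcCoAS thus fell by 1.01 ± 0.04 on the log2 scale (SE; edgeR, adjusted p = 2.60e-15). The value sits at the 2-fold limit and crossed it, to −0.61 with library totals, −0.99 without wt replicate 1 and −0.97 under a stricter filter of 10 counts in each library. AcCoAS (FBgn0012034) lies on the minus strand of 3L, from 21270722 to 21280243. The sum of both acetyl-CoA genes was 33.3% of the wt level.

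ACC, the acetyl-CoA carboxylase whose product malonyl-CoA feeds chain growth, had the next largest fall. It was at 144, 137 and 145 CPM in CG1603PBac libraries, against 481, 501 and 499 CPM in wt libraries, and the mutant libraries were all lower. ACC fell by 1.80 ± 0.05 on the log2 scale (SE; edgeR, adjusted p = 2.11e-18), and its mutant level was 28.8% of wt. ACC (FBgn0033246) lies on the minus strand of 2R, from 7974115 to 7991862.

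FASN1 and FASN2 are neighbouring genes for fatty acid synthase, the multifunctional enzyme that builds the chain, and they differed in direction. FASN1 (CG3523 in the files, FBgn0283427) is the general synthase and lies on the plus strand of 2L, from 3056598 to 3068177. It had 727, 722 and 717 CPM in CG1603PBac libraries and 1795, 1803 and 1758 CPM in wt libraries. FASN1 fell by 1.31 ± 0.04 on the log2 scale (SE; edgeR, adjusted p = 4.92e-18), to 40.4% of the wt level. FASN2, v(2)k05816 in the files (FBgn0042627), is a synthase known from oenocytes and lies next to FASN1 on the same strand, from 3043947 to 3056143. It had 39.8, 36.5 and 39.1 CPM in CG1603PBac libraries, against 31.7, 30.1 and 27.5 CPM in wt libraries. Its log2 fold change was 0.37 ± 0.10 (SE; edgeR, adjusted p = 0.00325). It was −0.22 (edgeR, adjusted p = 0.0635) once the trend of fold changes with exon length was removed, so the direction of FASN2, with 8161 bp of exons, depended on that correction. With library totals it was 0.77. No library of one genotype overlapped the other for either gene.

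Desat1, the main stearoyl-CoA desaturase, which puts the first double bond into a saturated chain, was nearly level. It had 1309, 1305 and 1307 CPM in CG1603PBac libraries and 1403, 1386 and 1431 CPM in wt libraries, close to each other but without overlap. The difference was −0.11 ± 0.03 on the log2 scale (SE; edgeR, adjusted p = 0.0104), to 92.9% of the wt level. With library totals in place of TMM it was 0.29 (edgeR, adjusted p = 1.71e-07), so its direction depended on the scaling. Desat1 (FBgn0086687) lies on the plus strand of 3R, from 12439600 to 12447616.

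The genes of the last steps to triglyceride changed little. Lpin, the phosphatidate phosphatase that makes diacylglycerol, had 144, 148 and 140 CPM in CG1603PBac libraries and 120, 114 and 113 CPM in wt libraries. Lpin had a log2 fold change of 0.32 ± 0.06 (SE; edgeR, adjusted p = 4.68e-05), but −0.063 (edgeR, adjusted p = 0.336) with the length trend removed and 0.71 with library totals. Lpin (FBgn0263593, 2R, minus strand, 8136986 to 8156654) shares 10.9% of its exon bases with kermit on the same strand, where counting cannot assign reads with certainty. The acyltransferase gene mdy, which adds the last fatty acid to diacylglycerol, had 107, 114 and 107 CPM in CG1603PBac libraries, against 137, 138 and 132 CPM in wt libraries. For mdy the log2 fold change was −0.31 ± 0.06 (SE; edgeR, adjusted p = 7.25e-05), but 0.081 (edgeR, adjusted p = 0.217) with library totals. It lies on the plus strand of 2L (FBgn0004797), from 16816660 to 16826964. Summed, the level of Lpin and mdy in CG1603PBac was 101% of that in wt.

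The perilipin genes moved in opposite directions. Lsd-1 and Lsd-2 encode the perilipins of the fly, proteins on the droplet surface that govern the access of lipases. Lsd-1 had 203, 209 and 197 CPM in CG1603PBac libraries and 499.6, 493 and 471 CPM in wt libraries. It fell by 1.26 ± 0.05 on the log2 scale (SE; edgeR, adjusted p = 5.08e-16), to 41.7% of wt. Lsd-2, known to shield stored fat from breakdown, had 541, 537 and 562 CPM in CG1603PBac libraries, against 335, 312 and 339.6 CPM in wt libraries. Lsd-2 rose by 0.73 ± 0.04 on the log2 scale (SE; edgeR, adjusted p = 3.99e-12), to 166% of wt. Both directions held in every alternative that was run, with −1.30 to −0.87 for Lsd-1 and 0.46 to 1.13 for Lsd-2. Lsd-1 (FBgn0039114) lies on the plus strand of 3R, from 23763857 to 23766662, with 7.35% of its exon bases overlapped by CG10214 on the opposite strand. Lsd-2 (FBgn0030608) lies on the minus strand of the X, from 15069127 to 15076220.

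**Figure D2:**
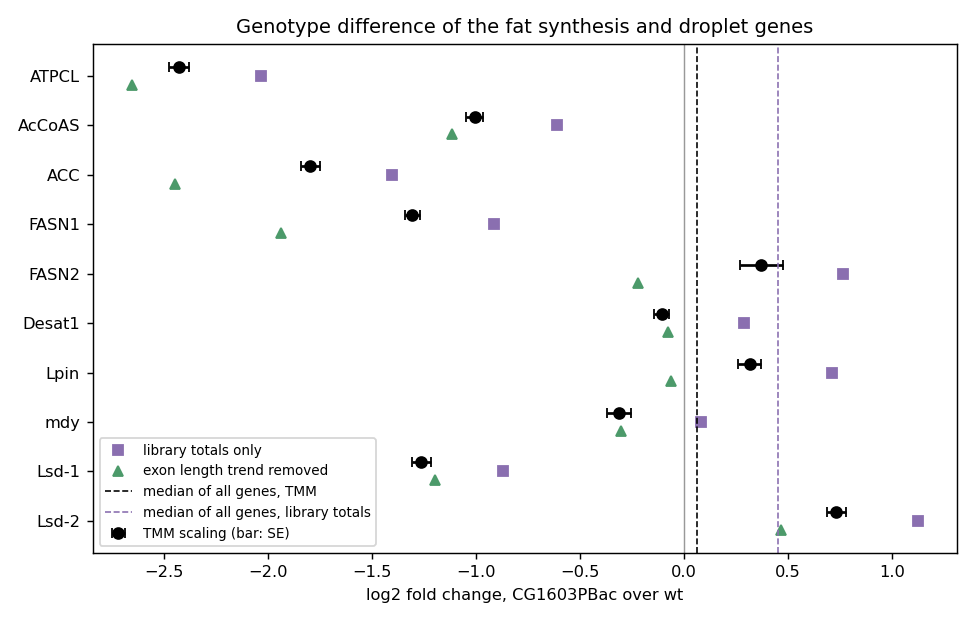
log2 fold change, CG1603PBac over wt, of each of the 10 genes with TMM scaling (circles, bars are SE), with library totals only (squares) and with the exon length trend removed (triangles); dashed lines mark the median of all genes, 0.06 with TMM and 0.45 with library totals. ATPCL, AcCoAS, ACC, FASN1 and Lsd-1 stay below 0 and Lsd-2 above 0 in all 3, while FASN2, Desat1, Lpin and mdy change side.

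Compared per exon length, the order of the genes changed between the genotypes. In CG1603PBac larvae Desat1 came first at 525 CPM per kb, then AcCoAS (131 ± 1.24), Lsd-2 (119 ± 2.96), Lsd-1 (104 ± 3.18) and FASN1 at 82.6 CPM per kb (SD, n = 3). ATPCL at 45.7 ± 2.35, mdy at 40.6 ± 1.64, Lpin at 26.1, ACC at 15.7 and FASN2 at 4.72 CPM per kb followed. In wt larvae the order was Desat1 at 565 CPM per kb, AcCoAS (263 ± 9.25), Lsd-1 (249 ± 7.64), ATPCL (246 ± 9.30), FASN1 (204), Lsd-2 (71.6), ACC (54.5 ± 1.18), mdy (50.4 ± 1.25), Lpin (21.0) and FASN2 (3.65). In wt larvae AcCoAS, Lsd-1 and ATPCL lay within 2 SD of each other and their order there is not firm. ATPCL thus stood beside Lsd-1 in wt larvae and beside mdy in CG1603PBac larvae, and Lsd-2 stood above Lsd-1 in CG1603PBac larvae.

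Ratios of counts within a library do not depend on how libraries are scaled, and 6 such ratios were compared. They were not corrected for the trend of fold changes on exon length, and exon length differs between the genes of a ratio. Lsd-1 over Lsd-2 was 0.376, 0.390 and 0.350 in the CG1603PBac libraries, against 1.49, 1.58 and 1.39 in the wt libraries. On the log2 scale the ratio differed by −1.996 (−1.43 ± 0.0791 in CG1603PBac and 0.57 ± 0.0941 in wt, SD, n = 3 each). Per exon length, Lsd-1 was under Lsd-2 in CG1603PBac larvae and above it in wt larvae. FASN1 over FASN2 was 18.2, 19.8 and 18.3 in CG1603PBac and 56.7, 59.9 and 63.9 in wt libraries, a log2 difference of −1.68. ATPCL over AcCoAS had a log2 difference of −1.42, from ratios of 0.438, 0.432 and 0.391 in CG1603PBac and 1.05, 1.12 and 1.20 in wt libraries. The numerator gene thus lost more than the denominator gene in each of these 3 ratios, or fell while it rose.

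Desat1 over FASN1 rose by 1.20 on the log2 scale, to 1.80, 1.81 and 1.82 in CG1603PBac libraries against 0.782, 0.769 and 0.814 in wt libraries. FASN1 over ACC differed by 0.49 and mdy over Lpin by −0.63. In all 6 ratios the libraries of the genotypes did not overlap, with an exact two-sided permutation p = 0.10 each (adjusted over the 6, 0.10), which is the smallest p that 3 against 3 libraries allow.

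**Figure D3:**
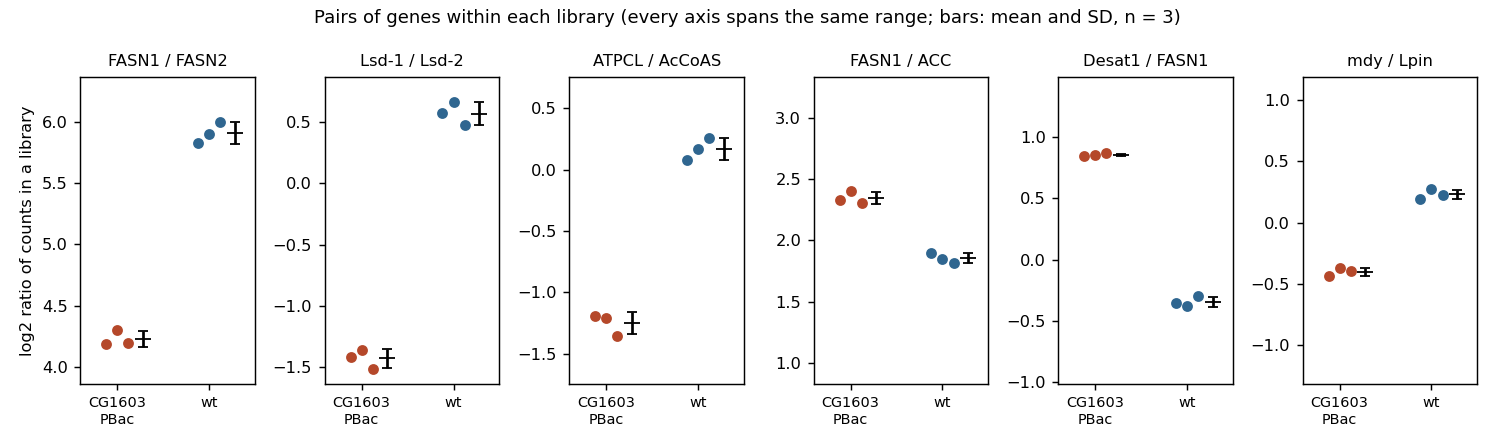
log2 ratio of the counts of 2 genes within each library (y axis, every panel spans the same range) in 3 CG1603PBac and 3 wt libraries (points), with mean and SD. The groups are separate in all 6 panels, most widely for Lsd-1 over Lsd-2 (−1.996) and FASN1 over FASN2 (−1.68).

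The genes around these steps were read from 9 lists of lipid genes, 107 genes of which 102 were tested. There were 51 lower and 35 higher, and 16 missed the threshold, against 34.9% lower and 34.8% higher over all genes tested. With library totals the balance turned to 40 lower and 43 higher. The median log2 fold change of the 102 was −0.39. The shares over all genes are also the background for the counts of each list below. Genes of citrate export and NADPH supply were all lower, 6 of 6, and 5 of them by more than 2-fold (median −1.40). The malic enzymes yield NADPH, and their genes Men (−0.81) and Men-b (−1.49) fell on the log2 scale, as did the isocitrate dehydrogenase gene Idh (−1.22). Pgd, the phosphogluconate dehydrogenase of the pentose phosphate pathway, had 72.9 ± 6.21 CPM in CG1603PBac and 395 ± 25.7 CPM in wt larvae (SD, n = 3 each), a log2 fold change of −2.44 and the largest fall in that list.

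Genes that activate and bind fatty acids went the same way. Of 12 tested, 11 were lower (median −1.42), and Fatp2 at −0.11 did not pass. With library totals 1 gene of that list was higher. Acsl, a long-chain acyl-CoA synthetase, was at −1.35, bgm, a synthetase for very long chains, at −1.66, and the fatty acid binding protein gene fabp at −2.32. The annotation places fabp and sea, a gene of the citrate export list, at the same span of 3R (11559896 to 11567054, minus strand). Their counts may therefore not be independent. Acbp3 (CG8628), which encodes an acyl-CoA binding protein, had 2.97 ± 0.375 CPM in CG1603PBac and 72.8 ± 9.62 CPM in wt larvae (SD, n = 3 each), a log2 fold change of −4.61. Fatp1 (Fatp in the files) was listed at 0 counts in all 6 libraries, as was an older gene model now merged with it. Counting sets aside reads that fall on overlapping models, and whether that gave the zeros was not tested, so they do not show that the gene is silent.

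Elongation and desaturation genes were split. The elongation list gave 14 lower and 7 higher of 23 tested genes (median −0.49), and 2 missed the threshold. It also holds a synthase gene, FASN3 (CG17374), which was lower at −0.91. The most abundant, Baldspot, an elongase of long chains, was at −0.48, while the elongase genes CG5326 (0.66) and CG31523 (0.28) were higher. eloF was at −2.90 and Elo68alpha at 1.31, both with low group means of under 7 CPM. Among 5 other desaturases, CG8630 (0.81), CG9743 (0.71) and CG9747 (0.46) were higher and CG15531 was lower, at 52.5 ± 3.93 CPM in CG1603PBac and 105 ± 6.61 CPM in wt larvae (SD, n = 3 each). Fad2, a desaturase gene of pheromone synthesis, was listed at 0 counts in all libraries.

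The glycerolipid list gave 5 lower and 4 higher of 13 (median −0.40). Its share lower, 38.5%, was near the 34.9% of all genes tested. Gpdh1 (Gpdh), the glycerol-3-phosphate dehydrogenase that supplies the glycerol backbone, was at −1.72, with 340.1 ± 11.8 CPM in CG1603PBac and 1119 ± 21.7 CPM in wt larvae (SD, n = 3 each). Agpat4, an acyltransferase that makes phosphatidate, was at −1.47, Gpat4 (CG3209) at 0.14 and laza, a lipid phosphate phosphatase, at 1.05. Phospholipid genes were 5 lower and 4 higher of 10 (median −0.19). Pss (CG4825), a phosphatidylserine synthase, was at −2.02 and Pcyt2 (Cct2), an enzyme of phosphatidylcholine synthesis, at 1.79. Cds (0.32), bbc (−0.37) and eas (0.44) changed less. With library totals 2 rather than 5 phospholipid genes were lower.

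Among the other droplet and lipolysis genes, more were higher than lower, 6 against 4 of 11 (median 0.44). The share lower, 36.4%, was near the 34.9% of all genes tested, of which 34.8% were higher. The gene puml (CG1882), homolog of mammalian CGI-58, a co-activator of fat lipase, had 532 ± 2.80 CPM in CG1603PBac and 137 ± 5.25 CPM in wt larvae (SD, n = 3 each), a log2 fold change of 1.96. CG5966, annotated as a lipase, was at 2.87, and Jabba, which anchors histones to droplets, at 0.77. Ldsdh1 (CG2254), a dehydrogenase of the droplet surface, fell by 1.38 on the log2 scale. With library totals 1 rather than 4 genes of that list was lower.

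Lipoprotein transport genes gave 3 lower and 3 higher of 7 (median 0.06). The lower ones are the blood lipoprotein gene apolpp (Rfabg, −2.06), Mtp (−2.37), which loads lipid onto it, and Apoltp (−0.66). NLaz, a lipocalin gene, was at 1.53. Among 15 regulators 8 were higher and 2 lower (median 0.25). SREBP (HLH106), the transcription factor that drives fatty acid synthesis genes, was at 253 ± 10.2 CPM in CG1603PBac and 213 ± 6.50 CPM in wt larvae (SD, n = 3 each), higher by 0.25 on the log2 scale (edgeR, adjusted p = 1.60e-04). Mondo (Mio), the sugar-responsive factor, was at −0.45 and AkhR, the receptor of adipokinetic hormone, at −1.01. AMPKalpha (0.52) and SIK2 (Sik2, 1.51) were higher. With the length trend removed 5 rather than 8 regulators were higher, and with library totals 1 rather than 2 was lower. The call of SREBP, with 4056 bp of exons, was not followed singly in these alternatives.

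**Figure D4:**
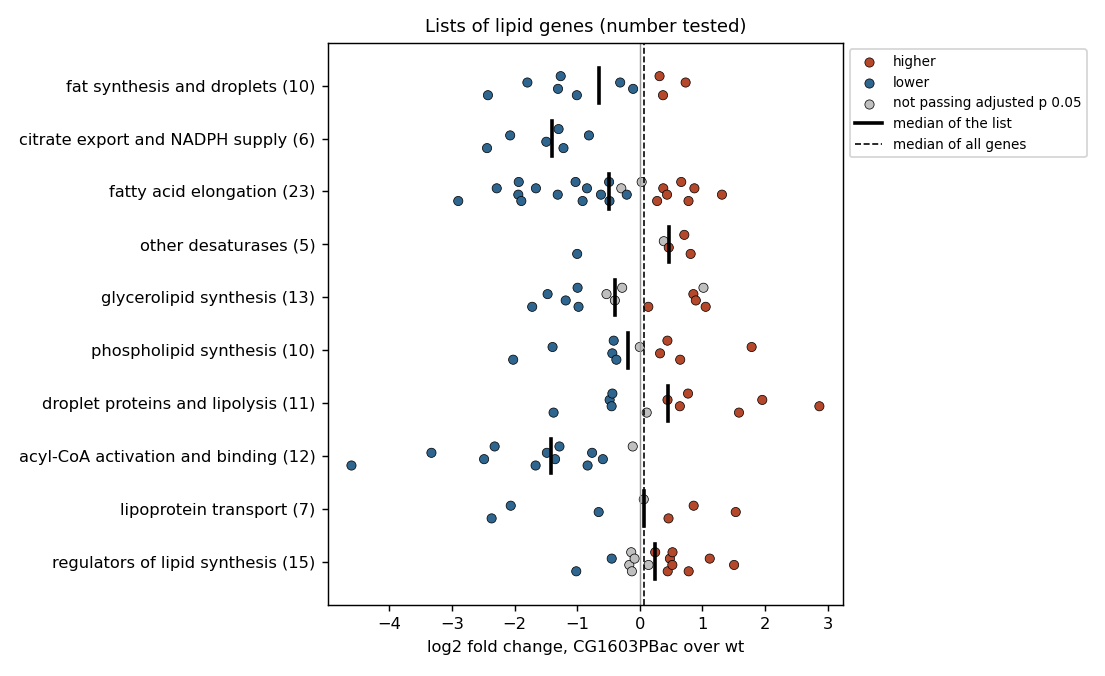
log2 fold change, CG1603PBac over wt, of each tested gene (points; red higher, blue lower, grey not passing) in the 10 fat synthesis and droplet genes and in 9 lists of other lipid genes, with the median of each list (bar) and of all genes (dashed line, 0.06). The lists of citrate export and NADPH supply and of acyl-CoA activation and binding have no gene called higher.

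Markers of several cell types also differed. Of 11 fat body markers, 9 were tested, 6 were lower and 3 did not pass (median −1.15), and their summed level was 1220 to 1284 CPM in CG1603PBac and 3802 to 3973 CPM in wt larvae. Fbp1 was at 0 in all libraries, and Lsp2 and Fbp2, which mark the later larval fat body, were at or near 0. The sum rests largely on apolpp and on the collagen genes Col4a1 (Cg25C) and vkg, which hemocytes express too. The 3 oenocyte markers summed to 1145 to 1164 CPM in CG1603PBac and 1054 to 1068 CPM in wt larvae, with Cpr higher and Cyp4g1 and FASN3 (CG17374) lower. Midgut markers summed to 3028 to 3100 CPM in CG1603PBac and 4345 to 4711 CPM in wt larvae (4 lower and 2 higher of 6). All 6 muscle markers were lower, with sums of 18119 to 18243 CPM in CG1603PBac and 51185 to 55557 CPM in wt larvae. All 5 neuronal markers were higher, with sums of 673 to 699 CPM in CG1603PBac and 212 to 242 CPM in wt larvae. Of 4 hemocyte markers 2 were higher and 1 was lower, with sums of 220 to 236 CPM in CG1603PBac and 170 to 179 CPM in wt larvae. These counts stand against 34.9% lower and 34.8% higher over all genes tested. The part of cell type make-up in the results was not tested.

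**Figure D5:**
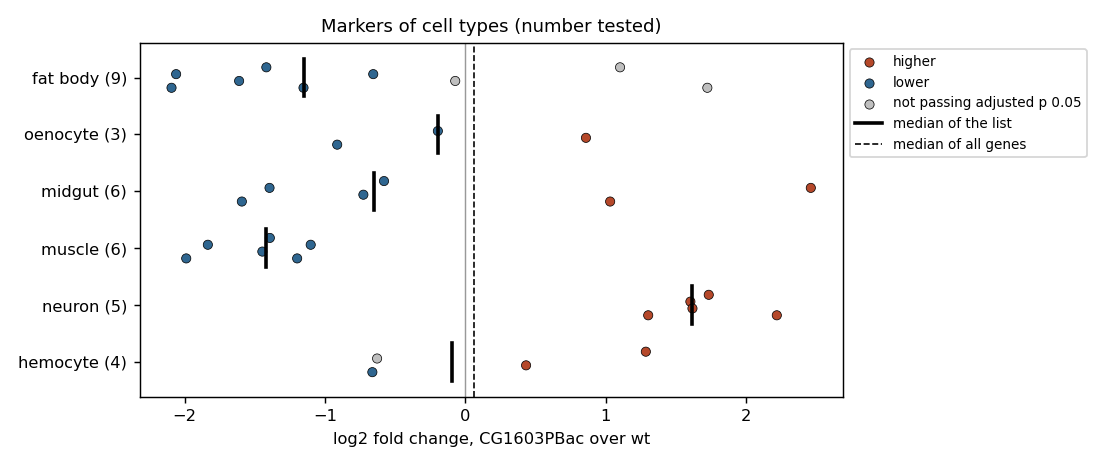
log2 fold change, CG1603PBac over wt, of tested markers of 6 cell types (points; red higher, blue lower, grey not passing), with the median of each list (bar) and of all genes (dashed line). Fat body markers have a median of −1.15, muscle markers −1.42 and neuronal markers 1.62.

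Set against the summed fat body markers within each library, the 10 genes spread on both sides. The sum itself had a log2 ratio of −1.63, CG1603PBac over wt. A gene with an unchanged CPM, or one at the all-gene median of 0.06, therefore reads as higher in this ratio. ATPCL was still lower in CG1603PBac (log2 difference −0.80) and ACC slightly so (−0.17). AcCoAS (0.62), FASN1 (0.32) and Lsd-1 (0.36) were higher relative to this sum. Desat1 (1.52), mdy (1.31), Lpin (1.94), FASN2 (2.00) and Lsd-2 (2.36) were higher by more. For each of the 10 the libraries of the genotypes did not overlap in this ratio, which was not computed for all genes. More of the sum came from apolpp than from any other marker in every library, and without apolpp FASN1 (−0.087) and Lsd-1 (−0.044) turned to slightly lower, Lsd-1 with overlap. The other 8 kept their direction without it, among them ATPCL (−1.21), ACC (−0.58) and AcCoAS (0.21). The sum without apolpp rests largely on Col4a1 and vkg, which hemocytes express too. Both ratios were computed after the values had been seen and are given without a test.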

How the data were processed

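The deposited values are whole-number counts of reads per gene, 1 table per library, neither normalized nor pooled. The authors aligned paired reads to dm6 with STAR, after FastQC, and counted them with HTSeq. The annotation version and the strand setting are not given in the sources used here. HTSeq categories that name no gene held 45.2 ± 0.332% of reads in CG1603PBac and 20.5 ± 0.442% in wt libraries (SD, n = 3) and were left out. P-values rest on the spread between these 6 libraries. Replicate pairs differed by more than sampling noise (chi-square per gene 7.46 to 17.0).

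Counts were tested with edgeR 4.0.16 in R 4.3.3 (TMM, filterByExpr with a minimum count of 10 and minimum total of 15, quasi-likelihood F test, robust, no block), with Benjamini-Hochberg adjustment over 11306 genes and a threshold of 0.05. SE is the log2 fold change over the root of F. TMM factors were 1.14 to 1.15 in CG1603PBac and 0.864 to 0.887 in wt libraries. Ratios within libraries were compared by exact permutation. Symbols and exon lengths came from an Ensembl annotation in dm6 coordinates (16508 of 16727 symbols matched). Cct2 and Mio were not among the matched symbols and were taken to be Pcyt2 and Mondo by their older names. The edgeR steps were also run on simulated counts. Few genes changed there, unlike in these data, so that run does not check the scaling.

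Named genes are the 10, and in each list the 3 most abundant genes and the largest fall and rise (called, with a mean CPM of 1 or more); others named were chosen after their values were seen. The genes and lists were chosen with earlier results of these data known. Aliases of 5 listed genes were corrected against the annotation after the files were opened. Alternatives were DESeq2 1.42.0, its size factors in edgeR, library totals, no filter, a stricter filter (10 or more counts in all 6 libraries), limma-voom (limma 3.58.1), a replicate block, 0.5 added to counts in the ratios, removal of the loess trend (span 0.5) on exon length with and without the block, and each library left out.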

Additional observations from a re-analysis of the deposited data

How the results depend on the processing

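ATPCL, AcCoAS, ACC, FASN1, Lsd-1 and Lsd-2 kept direction and call in all 15 alternatives. With library totals the all-gene median moved to 0.45 on the log2 scale, Desat1 to 0.29 and mdy to 0.081. Then 2585 of all genes were lower (3946 with TMM) and 5661 higher (3936 with TMM), which is 40 lower and 43 higher in the 9 lists, and 2 of the 10 genes (ATPCL and ACC) were lower by more than 2-fold. With the exon length trend removed FASN2 was at −0.22 and Lpin at −0.063, and with a replicate block added FASN2 was at −0.22 and Lpin at −0.070, so 1 of the 10 genes (Lsd-2) was higher in both. Desat1 missed the threshold at −0.074 with the length trend removed (adjusted p = 0.0665 from edgeR) and at −0.069 with at least 10 counts in every library (adjusted p = 0.0814 from edgeR). Same-numbered libraries did not deviate together (correlations −0.0204 to 0.00573), which gave no sign of pairing but cannot exclude it. With the replicate block alone 7 of the 10 genes were lower and 3 higher.

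Leaving out each library in turn gave 7 lower and 3 higher genes throughout, and 4 or 5 lower by more than 2-fold, since AcCoAS crossed that limit without wt replicate 1, wt replicate 2 or CG1603PBac replicate 2. The number lower over all genes ran from 3729 to 3944 and the number higher from 3596 to 3990. The 6 ratios within libraries kept their direction, with −2.04 to −1.95 for Lsd-1 over Lsd-2 and −1.72 to −1.63 for FASN1 over FASN2, although 2 against 3 libraries cannot give an exact p below 0.20. The cause of these shifts was not tested.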

Other observations

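Elongase genes that lie side by side were mostly lower in a run on 3R and mostly higher in another. The runs were defined after the values had been seen, as 3 or more genes of 1 of the 9 lipid lists with gaps of at most 20000 bp, and are given without a test. Their genes were not followed singly with the trend on exon length removed. On 3R, from 9812747 to 9819877 of dm6, lie CG8534, eloF, CG16904, CG9459 and CG9458. Of these 5 elongase genes 4 were lower in CG1603PBac larvae and CG9458 did not pass (median log2 fold change −1.94). Over all genes tested 34.9% were lower. CG16904 had 9.22 CPM in CG1603PBac and 45.0 CPM in wt larvae. The other lower genes had low levels in both genotypes. In CG1603PBac and wt larvae, eloF had 0.858 and 6.47 CPM, CG9459 1.09 and 4.18 CPM, and CG8534 2.38 and 7.53 CPM. A second run on 3R, from 22532174 to 22580392, holds CG5326, bond, sit and CG33110. There 3 genes were higher and bond was lower (median 0.72), with sit (CG5278) at 330.4 CPM in CG1603PBac and 193 CPM in wt larvae. Genes of a run belong to the same family, and reads that fit more than 1 place were set apart in the counting.

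All 6 Acbp genes, for small proteins that carry acyl-CoA, were lower, with log2 fold changes from −4.61 to −0.59. Over all genes tested 34.9% were lower. The Acbp genes have 337 to 697 bp of exons and were not followed singly with the length trend removed. Acbp4, Acbp6, Acbp3 and Acbp2 lie together on 3L, from 7127913 to 7133463. All 4 were lower (median log2 fold change −1.62). The remaining runs were mixed. CG9747, CG15531 and CG9743, desaturase genes on 3R from 30185423 to 30202998, had 2 higher and 1 lower. CG1941, Dgat2 and CG1946, acyltransferase genes on 2R from 7709873 to 7716781, had 1 higher (CG1941) and 2 that did not pass.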
